A study of Mus musculus with 6 samples.

Results

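Genes of the integrated stress response were examined in primary mouse hepatocytes treated with IL-1β. The group consisted of 10 named genes, chosen with earlier results of these data known and matched to the deposited table by symbol. They were the transcription factors Atf4, Atf5 and Ddit3, and the ATF4 targets Trib3, Asns, Chac1, Sesn2, Psat1, Phgdh and Slc7a11. All 10 were among the 23282 genes listed, and all 10 passed the filter on low counts that kept 11657 genes. Their lowest count in any library was 24, for Sesn2, so none passed the filter through 1 group alone.

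Hepatocytes were isolated from the livers of mice whose genotype is given as C57BL6/N, by perfusion with collagenase, and left for 3 h after seeding before the medium was changed. In the treatment group, 3 samples received recombinant IL-1β protein for 24 h. The control group held 3 samples without treatment. RNA was sequenced by QuantSeq, a method that captures mRNA at its 3′ end. The sex and age of the mice and the IL-1β dose of the sequenced cultures are not given in the sources used here. The labels do not say whether the 3 samples of a group came from separate animals or cultures, so the p-values measure the spread between these samples, which may be technical. The series description speaks of 2 samples per group while naming 3, and the table held 3, all of which were used.

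In the integrated stress response, kinases that sense misfolded protein, amino acid shortage, double-stranded RNA or haem shortage phosphorylate the initiation factor eIF2α. General translation then slows, while the mRNAs of ATF4, ATF5 and CHOP (the product of Ddit3) are translated better through short reading frames upstream of their coding sequences. ATF4 binds composite C/EBP-ATF elements and raises genes of amino acid uptake, serine and asparagine synthesis, transfer RNA charging and glutathione metabolism. The files hold mRNA counts only, so neither ATF4 protein nor eIF2α phosphorylation was measured.

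The libraries held 9538741 to 11105408 counts in total, and the ribosomal RNA precursor Rn45s took 11.7% to 14.2% of them. Levels are given as CPM, each count scaled to a common library size with the TMM factors of edgeR. A count of 3, taken as the detection floor, was worth 0.270 to 0.315 CPM depending on the library, a limit for counting error only. Of 8 hepatocyte markers, all were detected in every library, with a summed level of 35155 to 36497 CPM in the controls and 29017 to 31313 CPM after IL-1β. The sum of 10 Kupffer cell and macrophage markers was 240.0 to 273 CPM in the controls and 245 to 275 CPM after IL-1β, and of the 8 that could be tested 0 passed in edgeR or DESeq2 and 2 were higher at an unadjusted p below 0.05. In bulk RNA, fewer cells of a type and less RNA per cell cannot be told apart.

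The DNA element bound by ATF4 is short. Its core, TGATGNAA in the C/EBP-ATF element, was searched on both strands in the RefSeq promoter windows of GRCm38.p6, which run from 250 bases before to 50 bases after each gene's start site. Windows existed for all 10 genes, and 4 of them held the core, namely Slc7a11, Asns, Chac1 and Trib3. The core occurred in 4.51% of the 27025 genes with a window and in 2.85% of the 9175 of these that were tested here. The stretches around the matches are shown for the genes that carry them, all of which were higher after IL-1β. Atf4, Psat1 and Sesn2, whose windows lacked the core, were also higher. Whether genes with the core were higher more often than genes without it was not tested. Each stretch is written 5′ to 3′ on the gene's own strand, with the core in capitals.
Slc7a11: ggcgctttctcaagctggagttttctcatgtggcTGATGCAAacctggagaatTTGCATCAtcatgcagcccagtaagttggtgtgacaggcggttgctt
Asns: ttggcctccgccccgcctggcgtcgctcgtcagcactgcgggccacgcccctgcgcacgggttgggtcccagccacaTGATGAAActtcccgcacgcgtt
Chac1: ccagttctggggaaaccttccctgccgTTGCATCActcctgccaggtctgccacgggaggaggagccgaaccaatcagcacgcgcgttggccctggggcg
Trib3: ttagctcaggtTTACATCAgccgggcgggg

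The Slc7a11 stretch covers chr3:50443614-50443713 on the minus strand and ends at the base before the start site. It holds the core as a pair in opposite directions, beginning 66 and 47 bases before the start site. The Asns stretch (chr6:7693210-7693309, minus strand) has 1 core that begins 23 bases before the start site, in the direction of the gene. This RefSeq start site lies upstream of the Asns position deposited with the counts, whose 5′ end is at 7693182. In Chac1 (chr2:119351022-119351121, plus strand) the core begins 193 bases before the start site, in the opposite direction. The Trib3 stretch (chr2:152344028-152344057, minus strand) lies after the start site, within the transcript, and its core begins at base 15. Atf4, Atf5, Ddit3, Sesn2, Psat1 and Phgdh had no match in these windows, which says only that these letters are not there. Binding of ATF4 was not measured, and a match is a description of the sequence.

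Of the 10 genes, 7 were higher after IL-1β at an adjusted p below 0.05 and 0 were lower, by the quasi-likelihood test of edgeR, adjusted by Benjamini-Hochberg across the 11657 genes. The 7 were Sesn2, Chac1, Slc7a11, Psat1, Asns, Atf4 and Trib3, with log2 fold changes from 0.33 to 0.94. Ddit3, Atf5 and Phgdh did not pass. At an unadjusted p below 0.05 the counts were also 7 and 0, and DESeq2 called 6 higher and 0 lower. For comparison, at the adjusted threshold 6.97% of all genes tested were called higher, 6.44% were called lower and 13.4% were called in either direction. The share of all genes at an unadjusted p below 0.05 is at least as large but is not given here. Counts at that level therefore have no background to be read against. The median log2 fold change of the 10 genes was 0.43, against -0.002 over all genes tested. Scaling by total counts alone, without TMM, kept 5 of the 7 calls, losing Trib3 and Sesn2, and under that scaling 39.6% of all calls were higher against 52.0% with TMM.

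The groups did not overlap, with every IL-1β sample above every control, in the same 7 genes. Among all genes tested, 28.2% had groups that did not overlap, 14% in this direction and 14.2% in the other. With 3 samples in each group, 0.1 is the smallest two-sided p of an exact permutation test, and each of the 7 had it.

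**Figure D1:**
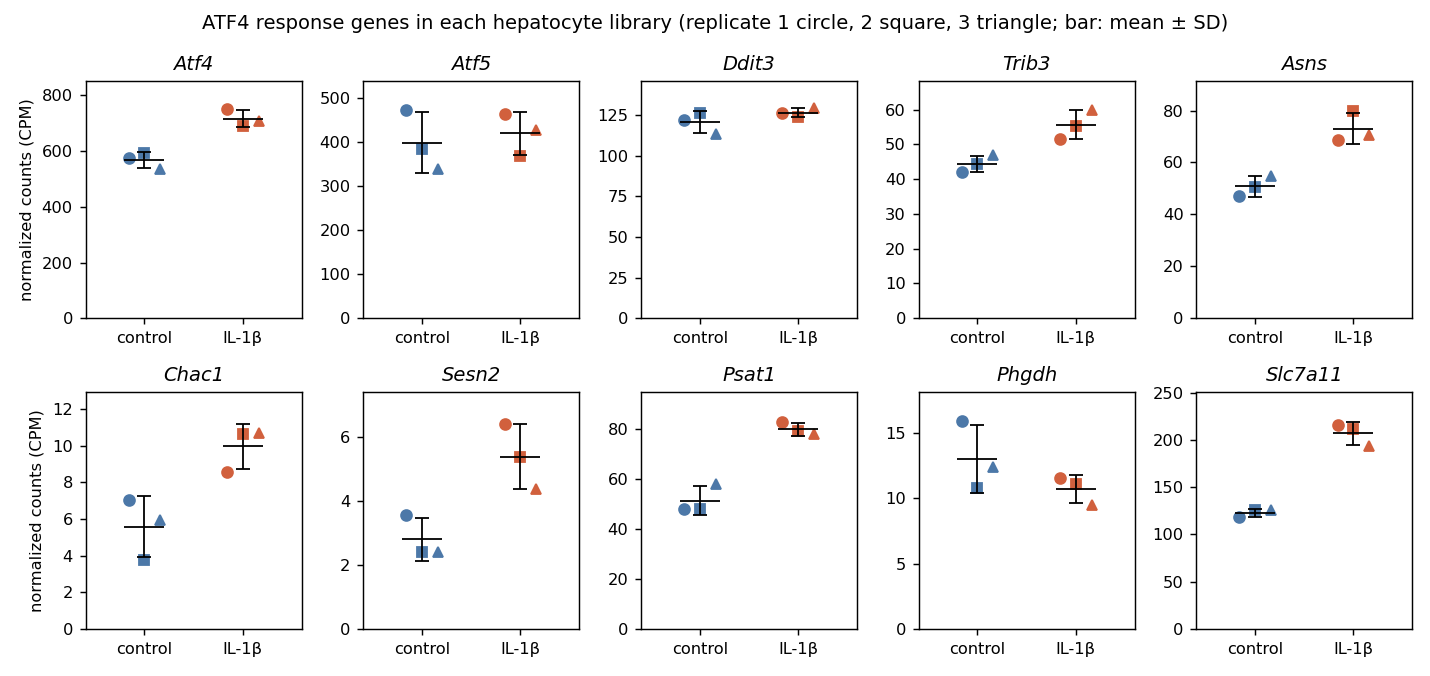
Normalized counts (CPM, vertical axis from 0, a separate scale for each gene) of the 10 genes in the 3 control and 3 IL-1β libraries, with symbols for replicates and bars for the mean ± SD. The IL-1β points lie above all control points in 7 panels, while those of Atf5, Ddit3 and Phgdh overlap the controls.

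Atf4, the central transcription factor of the response, is encoded at chr15:80255184-80257545 (GRCm38, plus strand). Its level was 576, 592 and 537 CPM in control replicates 1 to 3 and 750, 692 and 708 CPM after IL-1β. The lowest IL-1β sample was thus above the highest control. IL-1β against control gave a log2 fold change of 0.33 with a standard error (SE) of 0.062 (edgeR adjusted p = 3.8e-04), or 26.1% higher. The 95% interval of the log2 fold change ran from 0.21 to 0.46.

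Atf5 (chr7:44812256-44816658, minus strand), a related factor whose mRNA carries the same kind of upstream reading frames, was more variable. Its controls read 473, 383 and 339 CPM and its IL-1β samples 463, 368 and 426 CPM. The groups overlapped widely, with the highest value of all in control replicate 1. The log2 fold change was 0.07 with a 95% interval from -0.12 to 0.26 (adjusted p = 0.717 from edgeR). Without control replicate 1 it was 0.21 with an adjusted p of 0.0477, and without control replicate 3 it was -0.03, so the value rests on single libraries. The 5′ end of Atf5 overlaps Nup62 by 571 bases and Il4i1 by 272 bases, both on the other strand.

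Ddit3 (chr10:127290793-127296288, plus strand) encodes CHOP, a C/EBP-family factor that ATF4 raises under strong stress and that promotes cell death. Its level was 122, 126 and 113 CPM in the controls and 126, 124 and 129 CPM after IL-1β. The groups overlapped within a narrow range. The difference was 0.07 on the log2 scale with a 95% interval from -0.08 to 0.22 (adjusted p = 0.650 from edgeR), so an increase above 0.22 on the log2 scale lies outside the interval. The annotated 3′ end of Ddit3 on chromosome 10 overlaps that of Mars on the other strand by 68 bases, from 127296221 to 127296288. Whether counting used the strand is not given in the sources used here, and reads there could belong to either gene. Mars, which encodes methionyl-tRNA synthetase, was not called (0.08 on the log2 scale, adjusted p = 0.578).

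Trib3 (chr2:152337425-152344060, minus strand), a pseudokinase that CHOP and ATF4 raise and that restrains both ATF4 and AKT, read 42.1, 44.3 and 46.9 CPM in the controls. After IL-1β it read 51.6, 55.3 and 60.1 CPM. All IL-1β samples lay above all controls, though closely. This was a log2 fold change of 0.33 (SE 0.097, edgeR adjusted p = 0.0236). This call was lost with any of 4 libraries left out, and was kept only without control replicate 3 or IL-1β replicate 1. The adjusted p was 0.0606 without control replicate 1, 0.0613 without control replicate 2, 0.065 without IL-1β replicate 2 and, at its highest, 0.137 without IL-1β replicate 3.

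Among the genes of amino acid supply, Slc7a11 encodes xCT, which takes up cystine in exchange for glutamate and so supplies cysteine for glutathione. Its level was 118, 126 and 126 CPM in the controls and 216, 212 and 193 CPM after IL-1β. All IL-1β samples stood well above a tight control group, whose SD was 4.26 CPM (n = 3). Its log2 fold change was 0.75 (SE 0.072, edgeR adjusted p = 1.8e-08), or 68.1% higher, the smallest adjusted p of the 10 genes. The gene lies on chromosome 3 from 50364936 to 50443613, and GENCODE places another gene model, Gm37498, inside it on the same strand over 4002 bases.

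Asns (chr6:7675171-7693182, minus strand) encodes asparagine synthetase. It read 47.1, 50.4 and 54.8 CPM in the controls and 68.7, 79.9 and 70.6 CPM after IL-1β. Every IL-1β sample was above every control. Its log2 fold change was 0.53 (SE 0.094, edgeR adjusted p = 2.3e-04), or 44.1% higher. Its range with each library left out was 0.46 to 0.58, and the call held each time.

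Phgdh (chr3:98313171-98339969, minus strand) catalyses the first step of serine synthesis from a glycolytic intermediate, and Psat1 (chr19:15905123-15925059, minus strand) the next. Psat1 read 47.9, 48.0 and 58.0 CPM in the controls and 82.9, 79.1 and 77.9 CPM after IL-1β. Its groups did not overlap. This gave a log2 fold change of 0.64 (SE 0.093, edgeR adjusted p = 1.5e-05), or 55.9% higher. Phgdh read 15.9, 10.7 and 12.4 CPM in the controls and 11.5, 11.05 and 9.48 CPM after IL-1β. Its groups overlapped, and the log2 fold change was -0.28 with a 95% interval from -0.67 to 0.10 (adjusted p = 0.397 from edgeR). In the last 500 nt of the annotated Phgdh transcript, 8.45% of the 75-nt windows also occur in transcripts of other annotated genes, against 0% for each of the other 9 genes.

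Chac1 (chr2:119351242-119354327, plus strand) encodes an enzyme that degrades glutathione, and is among the most sensitive ATF4 targets known. It had few reads here, with 75, 42 and 59 counts in the controls and 80, 111 and 115 counts after IL-1β. On the normalized scale these were 7.05, 3.76 and 5.94 CPM against 8.55, 10.7 and 10.7 CPM. The groups did not overlap, and control replicate 2 was the lowest. For Chac1 the log2 fold change was 0.84 (SE 0.24, edgeR adjusted p = 0.0183). Without control replicate 2 it was 0.62 with an adjusted p of 0.104, and without IL-1β replicate 2 or 3 the adjusted p was 0.0845 or 0.0891.

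Sesn2 (chr4:132492807-132510456, minus strand), a leucine sensor that restrains mTORC1, had the fewest reads, with 38, 27 and 24 counts in the controls and 60, 56 and 47 counts after IL-1β. These were 3.57, 2.42 and 2.42 CPM against 6.41, 5.38 and 4.37 CPM. The groups did not overlap. Another gene model on the same strand, Gm12981, shares 6089 bases with Sesn2. The log2 fold change of Sesn2, 0.94, was the largest estimate of the 10 genes, but also the least precise, with a standard error of 0.31 and an adjusted p of 0.0484 from edgeR. The adjusted p was 0.0789 with DESeq2, 0.0562 with upper-quartile scaling and 0.0599 with total-count scaling. It was also above 0.05 with any library but control replicate 1 left out, from 0.0553 without IL-1β replicate 3 to 0.205 without IL-1β replicate 1. The 95% intervals of Sesn2 and Chac1 covered the estimates for Slc7a11, Psat1 and Asns, so no order among these 5 genes is given.

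**Figure D2:**
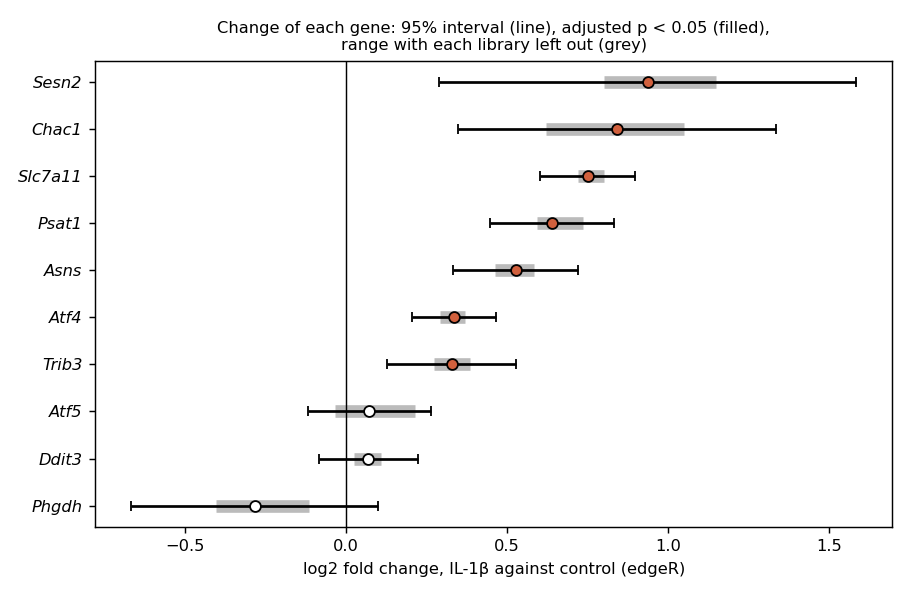
Log2 fold change of each of the 10 genes between IL-1β and control libraries (horizontal axis), with the 95% interval as a line, the range over fits that leave out each library in turn as a grey band, and filled points for an adjusted p below 0.05. The intervals of Sesn2 (0.29 to 1.58) and Chac1 (0.35 to 1.34) are the widest of the filled points, and those of Atf5, Ddit3 and Phgdh include 0.

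Within groups, no single library was the highest for all members. Control replicate 1 was the highest control for 4 of the 10 genes, namely Atf5, Phgdh, Chac1 and Sesn2, and control replicates 2 and 3 for 3 genes each. After IL-1β, replicate 1 was the highest for 6 genes, replicate 2 for 1 and replicate 3 for 3. The coefficient of variation among controls ran from 3.46% for Slc7a11 to 29.96% for Chac1.

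To compare neighbouring steps free of any scaling, ratios of raw counts were taken within each library, for pairs chosen after the values were seen. A ratio shows only an unequal change of its 2 genes. The count ratio of Psat1 to Phgdh was 3.02, 4.47 and 4.68 in the controls and 7.18, 7.16 and 8.22 after IL-1β. The ratio of Slc7a11 to Slc3a2, the heavy chain that carries xCT to the membrane, was 0.269, 0.245 and 0.234 in the controls and 0.390, 0.354 and 0.313 after IL-1β. The ratio of Atf4 to Atf5 was 1.22, 1.55 and 1.58 in the controls and 1.62, 1.88 and 1.66 after IL-1β. The groups did not overlap in these 3 ratios (p = 0.1 for each in an exact two-sided permutation test). The ratio of Trib3 to Ddit3 overlapped, with means of 0.370 ± 0.038 and 0.440 ± 0.028 (SD, n = 3 per group, p = 0.2 in an exact two-sided permutation test).

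**Figure D3:**
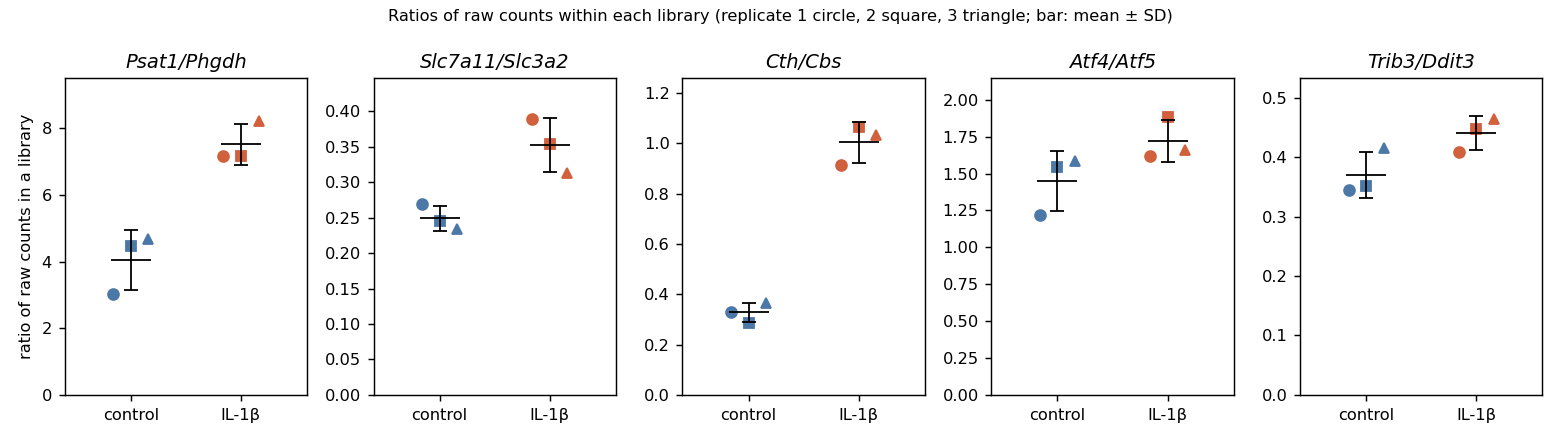
Ratios of raw counts within each library (vertical axis from 0) for 5 gene pairs, with symbols for the 3 replicates of each group and bars for the mean ± SD. The Psat1 to Phgdh ratio has means of 4.06 and 7.52, and the Cth to Cbs ratio means of 0.328 and 1.003, with no overlap between groups in these or in 2 further panels, while the groups overlap for Trib3 to Ddit3.

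Upstream of ATF4, 2 of 10 genes for eIF2α kinases, phosphatases and their regulators were higher and 0 lower, with a median log2 fold change of 0.13. Ppp1r15a, the stress-induced GADD34 subunit that directs dephosphorylation of eIF2α, rose from 36.2 ± 1.71 CPM in the controls to 46.0 ± 2.41 CPM (SD, n = 3 each), a log2 fold change of 0.34 (adjusted p = 0.0230 from edgeR). Eif2ak2, which encodes the double-stranded RNA sensor PKR, rose by 0.29 on the log2 scale (adjusted p = 0.0245). With total-count scaling neither passed, at adjusted p of 0.0594 and 0.0741. Ppp1r15a also did not pass without control replicate 3 (0.0964), IL-1β replicate 1 (0.098) or IL-1β replicate 2 (0.07). Eif2ak2 did not pass without control replicate 1 (0.0532) or 3 (0.0815), or without IL-1β replicate 1 (0.143) or 3 (0.0568). The other 3 kinases, HRI, PERK and GCN2 (Eif2ak1, Eif2ak3 and Eif2ak4), did not pass, with log2 fold changes of 0.03, -0.09 and 0.11. Dnajc3, an inhibitor of PERK and PKR, read 349 to 365 CPM in the controls and 313 to 317 CPM after IL-1β, and its adjusted p of 0.0598 fell below 0.05 in 5 of the 10 alternatives that kept every sample. Of the 8 subunits of eIF2 and eIF2B, 0 passed in either direction with edgeR or DESeq2, 1 was higher at an unadjusted p below 0.05, and their log2 fold changes lay between -0.08 and 0.18.

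Beside Atf4, 7 of 9 partner and stress factors of the bZIP class, with the cofactor Nupr1, were higher and 0 lower, with a median of 0.47. Cebpd, an acute phase C/EBP factor, rose most, from 44.7 ± 12.3 to 216 ± 14.7 CPM (SD, n = 3 per group), a log2 fold change of 2.27 (adjusted p = 2.3e-13 from edgeR). Atf3 and Cebpb, which can pair with ATF4, rose by 0.79 and 0.74, at an adjusted p of 1.4e-05 each. Nfe2l2, which encodes the oxidant-responsive factor NRF2, rose by 0.47 (adjusted p = 8.4e-06). Cebpg, the C/EBP partner of ATF4 in amino acid genes, did not pass (0.15 on the log2 scale, adjusted p = 0.246).

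Amino acid transporters were higher for 5 of 11 tested and lower for 0, with a median of 0.26. The cationic amino acid carrier Slc7a1 rose from 17.6 ± 0.584 CPM in the controls to 32.9 ± 1.79 CPM (SD, n = 3 each), a log2 fold change of 0.90 (adjusted p = 4.8e-06 from edgeR). Slc7a6 encodes an exchanger of cationic for neutral amino acids. It read 1.69, 0.537 and 1.41 CPM in the controls and 10.8, 8.74 and 6.79 CPM after IL-1β. The log2 fold change was 2.85, both with and without the filter on low counts. With 18, 6 and 14 counts in the controls, Slc7a6 passed that filter through the IL-1β group alone. A stricter filter, on the counts in every sample, left it untested. No adjusted p is therefore given for Slc7a6, and its call among the 5 has this limit. The glycine carrier Slc6a9 rose by 0.46 and Slc3a2 by 0.25, the latter at an adjusted p of 0.0189 that became 0.0799 with total-count scaling, 0.0755 without control replicate 1 and 0.0764 or 0.102 without IL-1β replicate 2 or 3. Slc7a5, the large neutral amino acid carrier and a familiar ATF4 target, was scarce, with 2.62 to 6.01 CPM in the controls and 3.46 to 5.02 CPM after IL-1β.

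Among 15 tested enzymes of serine, proline, folate and transsulfuration metabolism, 3 were higher and 1 was lower, with a median of 0.04. Mthfd2, the mitochondrial folate enzyme, rose by 0.67 (adjusted p = 2.0e-05 from edgeR) and Gpt2, mitochondrial alanine aminotransferase, by 0.28 (0.0166). Gpt2 did not pass with total counts only (0.0645) or without IL-1β replicate 2 (0.118) or 3 (0.0643). Cth, which releases cysteine from cystathionine, rose from 22.6 ± 1.30 CPM in the controls to 44.4 ± 5.74 CPM (SD, n = 3 each), a log2 fold change of 0.97 (adjusted p = 9.7e-07). Cbs, which makes cystathionine, fell by 0.65 on the log2 scale (adjusted p = 2.9e-05). The count ratio of Cth to Cbs was 0.330, 0.288 and 0.365 in the controls and 0.913, 1.063 and 1.034 after IL-1β (p = 0.1 in an exact two-sided permutation test). Psph, the last enzyme of serine synthesis, did not pass, with a log2 fold change of 0.17 (adjusted p = 0.652).

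Of 20 cytosolic aminoacyl-tRNA synthetases, many of them ATF4 targets, 16 had a positive log2 fold change, against 5786 of all 11657 genes tested. Their median was 0.08, and their summed level was 2978 to 3096 CPM in the controls and 3263 to 3296 CPM after IL-1β. At an unadjusted p below 0.05 from edgeR, 5 were higher and 0 lower, without a share of all genes at that level to compare. After adjustment, 1 was higher and 0 were lower. That one was Nars, asparaginyl-tRNA synthetase, which rose from 440.2 ± 17.1 CPM in the controls to 544 ± 19.7 CPM (SD, n = 3 each), a log2 fold change of 0.31 (adjusted p = 0.00101 from edgeR). The next smallest adjusted p were those of Farsb (0.0554), Iars (0.108) and Eprs (0.132), with log2 fold changes of 0.22, 0.20 and 0.16. Farsb passed without IL-1β replicate 1 (0.0447). Of the 17 mitochondrial synthetases, 0 were higher and 1, Sars2, was lower, with a median of -0.10. Sars2 fell by 1.09 on the log2 scale (adjusted p = 0.0336) at only 4.55 ± 0.754 CPM (SD, n = 3) in the controls, and DESeq2 gave an adjusted p of 0.0548. It did not pass without control replicate 1 (0.11) or 3 (0.0878), or without IL-1β replicate 1 (0.122) or 3 (0.124).

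**Figure D4:**
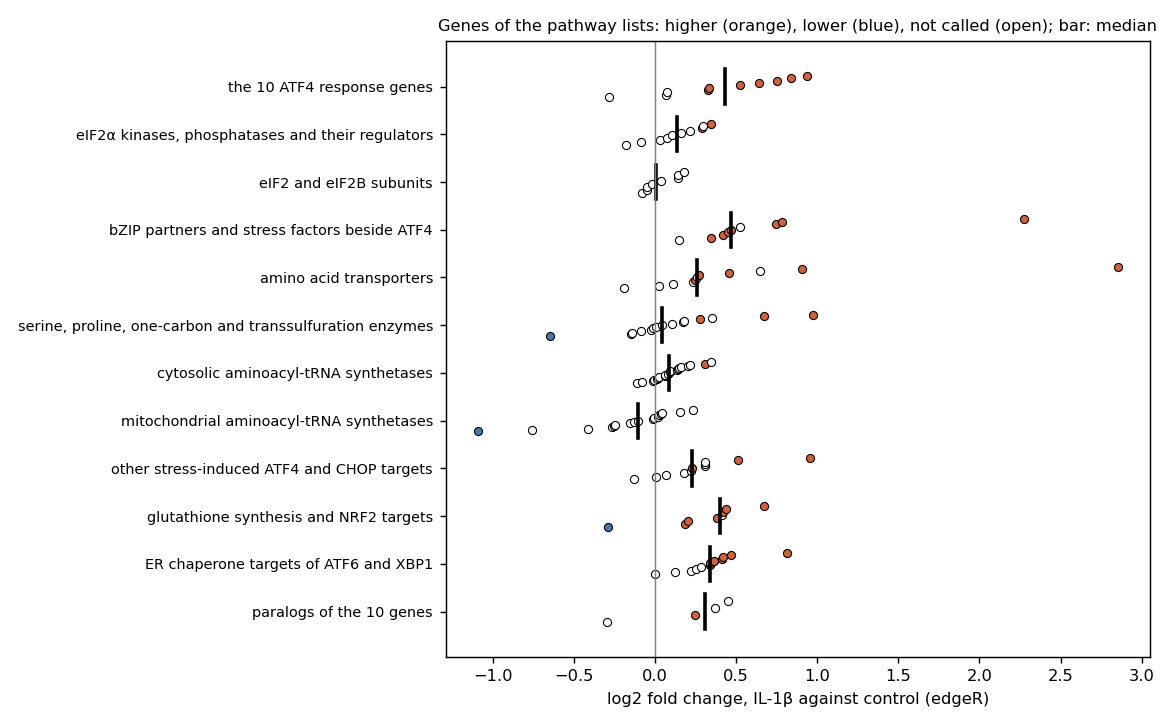
Log2 fold change between IL-1β and control (horizontal axis) of each tested gene on the 10-gene set and 11 related lists, with filled points for an adjusted p below 0.05 and bars for list medians. The cytosolic synthetases lie between -0.11 and 0.35 with 1 filled point (Nars, 0.31), whereas the bZIP partners have 7 filled points of 9 and the glutathione and NRF2 list 7 of 8.

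Other stress-induced targets of ATF4 and CHOP were higher for 3 of 11 tested and lower for 0, with a median of 0.23. Herpud1, a component of ER-associated degradation, rose by 0.95 (adjusted p = 1.5e-08 from edgeR), Vegfa by 0.51 (8.2e-04) and the autophagy receptor Sqstm1 by 0.23 (0.00658). For Sqstm1 the adjusted p was 0.052 with total-count scaling and 0.0539 without control replicate 2. The hepatokine gene Fgf21 had at most 0.101 CPM in any library and Stc2 at most 0.214, both below the level of 3 counts. Gdf15, a secreted stress cytokine, read 158 to 214 CPM in the controls and 193 to 235 CPM after IL-1β, with an adjusted p of 0.229.

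The glutathione synthesis and NRF2 list, which shares the cystine supply with Slc7a11, had 6 of 8 genes higher and 1 lower, with a median of 0.40. The higher calls numbered 4 with upper-quartile or total-count scaling, and 5 or 4 with any single library left out (4 without control replicate 3, IL-1β replicate 1 or IL-1β replicate 3). Gclm, the modifier subunit of glutamate-cysteine ligase, rose from 219 ± 16.1 CPM in the controls to 349 ± 5.72 CPM (SD, n = 3 each), a log2 fold change of 0.67 (adjusted p = 4.3e-08 from edgeR). Srxn1, Gsr and Gss rose by 0.43, 0.42 and 0.38. Hmox1, haem oxygenase 1, fell by 0.29 on the log2 scale (adjusted p = 0.0258), a call not made without control replicate 1, IL-1β replicate 1 or IL-1β replicate 2. The core of the antioxidant element that NRF2 binds, TGACNNNGC, was searched in the same windows on both strands, and in the 10 genes it overlapped no match of the C/EBP-ATF core. It was present for Asns, Phgdh and Sesn2 and not for Slc7a11. The same core was present in 13.99% of all genes with a window and in 16.87% of those tested. On the NRF2 list, Gclm, Srxn1 and Txnrd1 held it and Gss and Nqo1 did not. A lack of this core says only that these letters are not there, and binding of NRF2 was not measured.

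The ER chaperone targets of ATF6 and XBP1, the arms of the unfolded protein response beside PERK and ATF4, were higher for 7 of 12 and lower for 0, with a median of 0.34. Manf, Hsp90b1, Hspa5 and Calr rose by 0.81, 0.42, 0.36 and 0.34, with the largest adjusted p at 3.7e-04 (edgeR). Among the paralogs of the 10 genes, 1 of 4 tested was higher. Trib1 passed at 0.25, with an adjusted p of 0.0484 that became 0.0565 with DESeq2, 0.0826 with upper-quartile scaling and 0.151 with total counts. It was also above 0.05 with any library but control replicate 3 left out, up to 0.223 without control replicate 1. Sesn3, Sesn1 and Chac2 did not pass, at a log2 fold change of 0.45, 0.37 and -0.29.

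The genes whose profile over the 6 libraries lay nearest to that of Atf4, by the root mean square difference of centred log2 levels, were Ric1 (0.029), Ccbl2 (0.035) and Calr (0.036). Their log2 fold changes were 0.32, 0.32 and 0.34, against 0.33 for Atf4, and Ric1 and Ccbl2 did not pass the test (adjusted p of 0.199 and 0.0859 from edgeR).

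Markers of other cells were read beside these results. The 3 most abundant macrophage markers, Cd68, Ctss and Cd5l, had log2 fold changes of -0.06, -0.02 and -0.21. Over the 8 macrophage markers tested, 5 values were positive and the median was 0.23. The 2 at an unadjusted p below 0.05 were Cd74, with 6.95 to 9.21 CPM in the controls and 10.6 to 12.8 CPM after IL-1β (0.56 on the log2 scale, adjusted p = 0.0658), and Marco, with 2.86 to 5.24 and 5.30 to 7.27 CPM (0.67, adjusted p = 0.141). Adgre1 and Csf1r, which overlapped between groups, had 0.64 and 0.44. The summed endothelial markers were 65.2 to 72.3 CPM in the controls and 62.5 to 66.1 CPM after IL-1β, mostly from Eng and Lyve1. Lyve1 was higher, Clec4g and Kdr were lower (-2.87 and -1.49 on the log2 scale), and Eng and Pecam1 did not pass. Stab2 had -1.16 and did not pass (adjusted p = 0.209 from edgeR). Tek, too low to test, read 0 to 1.91 CPM in the controls and 0 to 0.384 CPM after IL-1β. Over the 6 endothelial markers tested, 2 values were positive and the median was -0.74. DESeq2 called 0 endothelial markers higher and 2 lower. The summed stellate cell and fibroblast markers were 39.0 to 41.7 CPM and 42.4 to 47.0 CPM, with none of the 3 tested genes, Sparc, Dcn and Col3a1, passing in edgeR, in DESeq2 or at an unadjusted p below 0.05. The other 5 were too low to test. Of these, Lrat, Des and Reln stayed below 1 CPM in every library, whereas IL-1β replicate 3 stood apart for Col1a1, at 3.35 CPM against at most 1.21 CPM in any other library, and for Pdgfrb, at 1.21 CPM against at most 0.288 CPM. The summed cholangiocyte markers were 317 to 329 CPM and 236 to 240.0 CPM, nearly all from Sox9, which did not pass in edgeR (0.21, adjusted p = 0.0519) but was called higher by DESeq2, and Spp1, which fell by 1.20 on the log2 scale. Krt7, Krt19 and Epcam were at or near 0 in every library. Cldn7 read 1.07 CPM in control replicate 2 and at most 0.0961 CPM in any other library. Of the neutrophil markers, S100a9, Mpo and Elane were at 0 in every library, and S100a8 was at 0 in the controls and at 2.03, 3.46 and 4.74 CPM after IL-1β. Cxcr2, too low to test, read 0 to 0.403 CPM in the controls and 0.192 to 0.465 CPM after IL-1β. Of the hepatocyte markers, 7 of 8 were lower (6 with DESeq2), Alb by 0.20 and Apoe by 0.26 on the log2 scale, while Fgb had -0.04. The other falls were larger, at 1.71 for the scarce Tat, 1.04 for Hnf4a, 0.58 for Gc, 0.35 for Ttr and 0.33 for Apoa1. Whether these differences have a part in the changes of the ATF4 response genes was not tested.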

How the data were processed

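QuantSeq 3′ mRNA-Seq libraries of 3 control and 3 IL-1β samples were read as single-end 75-nt reads. According to the labels, the authors aligned reads with Bowtie2 and named the builds mm10 and GRCm38. They deposited raw counts per gene, which were analysed here. They also deposited log2 values of TMM-normalized counts, used as an alternative, together with group averages. The linear ratio (fold) and p-value columns that the authors deposited hold their own comparison and were not used. The counting tool is not given in the sources used here.

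Counts were fitted in R 4.3.3 with edgeR 4.0.16 (filterByExpr, TMM, quasi-likelihood test) over 11657 genes, with Benjamini-Hochberg adjustment and a threshold of 0.05. A standard error is the log2 fold change divided by the square root of F, and intervals are at 95%. The fit was tested on simulated data. Alternatives used DESeq2 1.42.0 and limma 3.58.1, and exact tests scipy 1.17.1. Samples were fitted without pairing. Positions of the named genes are those that the authors deposited with the counts. Overlapping genes and transcript ends are from GENCODE vM21 (GRCm38), and promoter sequences are from RefSeq (GRCm38.p6).

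The 10 genes, the 11 lists and the marker lists were chosen with earlier results of these data known. The text names all 10 genes, up to 4 genes of each list with the smallest adjusted p, the 3 most abundant markers and the 3 genes most like Atf4. Further list genes (Mars, Cebpg, Slc7a5, Psph, Hmox1, Fgf21, Stc2, Gdf15, the other eIF2α kinases, and markers) were named after their values were seen.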

Additional observations from a re-analysis of the deposited data

How the results depend on the processing

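Slc7a11, Psat1, Asns and Atf4 stayed higher, with adjusted p under 0.05, in all alternatives run, also with each library left out. With the replicate number as a block, 7 of the 10 genes were again higher and 0 lower, and 1671 genes were called. The numbers were not taken as pairs, since the deviations of same-numbered control and IL-1β samples correlated by only 0.062, 0.0079 and 0.0038. The number of the 10 genes called higher was 6 with DESeq2 and upper-quartile scaling, 5 with total counts only, 7 in each other fit of all samples, and 4 to 7 with each library left out. It was 4 without control replicate 2, IL-1β replicate 2 or IL-1β replicate 3. Over all genes, 1373 to 1728 were called with all samples and 1131 to 1596 with each library left out.

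The log2 fold change of Trib3 was 0.27 with total counts only (adjusted p = 0.0676) and 0.27 to 0.38 with each library left out. That of Chac1 was 0.62 to 1.05 with each library left out. That of Sesn2 was 0.94 with DESeq2, 0.91 with upper-quartile scaling, 0.88 with total counts only and 0.80 to 1.15 with each library left out. Atf5 ranged from -0.034 to 0.21, Sesn1 from -0.065 to 0.62 and Chac2 from -0.53 to 0.15 with each library left out, and these were the genes whose direction turned (Atf5 to -0.034 without control replicate 3, Sesn1 to -0.065 without IL-1β replicate 1, Chac2 to 0.15 without control replicate 1). For the other genes given with list results, 9 values lost and 7 gained a call among 439 with all samples. With each library left out, 22 values lost and 2 gained a call and 2 changed direction, among 264.

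With total counts only, genes called higher were 0 for eIF2α kinases and regulators and 3 for amino acid transporters, and the medians of cytosolic synthetases and of the glutathione and NRF2 list were 0.031 and 0.34. Genes called lower for eIF2α kinases and regulators (Dnajc3) were 1 with DESeq2, upper-quartile scaling, total counts only, limma on log2(CPM + 1) and the replicate block. Cytosolic synthetases called higher were 2 with the stricter filter (a minimum of 10 counts per sample) and with the block. Mitochondrial synthetases called lower were 0 with DESeq2. Paralogs called higher were 0 with DESeq2, upper-quartile scaling and total counts only. With each library left out, genes called higher were 0 to 2 for eIF2α kinases and regulators, 3 to 5 for amino acid transporters, 4 to 5 for the glutathione and NRF2 list, 5 to 7 for bZIP factors and for ER chaperones, 2 to 4 for serine and folate enzymes and for other ATF4 and CHOP targets, 1 to 2 for cytosolic synthetases and 0 to 1 for paralogs. Genes called lower were 0 to 1 for mitochondrial synthetases and for the glutathione and NRF2 list, whose median was 0.31 to 0.42, and the median of the paralogs was 0.10 to 0.36. Calls for Chac1 and Sesn2 rest on fewer than 120 counts per library. Apart from the construction of each alternative, the cause of these shifts was not tested.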
